A study of Caenorhabditis briggsae with 9 samples.

Results

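A set of 10 genes of DNA replication, chromosome condensation and mitosis was followed in Caenorhabditis briggsae: Cbr-orc-3, Cbr-mcm-6, Cbr-cdk-2, Cbr-cdt-2, Cbr-cdc-25.1, Cbr-bub-1, Cbr-hcp-6, Cbr-mat-3, Cbr-capg-1 (CBG11864) and Cbr-bmk-1 (CBG11862). They are 10 of the 22922 gene identifiers counted, and 10 of 10 were among the 12507 genes that passed the filter on low counts and were tested. The genes were picked by name with earlier results of the strain comparisons known. Their own levels and fold changes are therefore given as a description with no p-value, and p-values are kept for other genes. The lists of other pathway genes were also made with earlier results known, so they are not an independent check.

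RNA of whole L3 larvae was sequenced after ribosomal RNA depletion in 9 libraries, 3 per strain, from cultures kept at 20 degrees and staged by Nomarski optics to the time just before the vulval precursor cells divide. The strains were a mutant carrying gu163, an allele of Cbr-spr-4 (also called Cbr-ivp-1), a mutant carrying gu167, an allele of Cbr-htz-1 (also called Cbr-ivp-2), and the wild-type isolate AF16. Each mutant was 1 strain with 1 allele, and the labels do not describe what either allele alters. The replicates are called biological and independent in the labels, so a p-value measures the spread between such cultures. SPR-4 of C. elegans is a zinc-finger protein, and HTZ-1 is the histone variant H2A.Z.

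Before a cell divides, the origin recognition complex loads the MCM helicase onto DNA, and cyclin-dependent kinases then fire the origins and later drive entry into mitosis. In mitosis, condensin compacts the chromosomes, kinetochores and kinesins attach and move them, and the anaphase-promoting complex triggers their separation. In an L3 larva the germ line and a limited set of somatic blast cells divide, while most other somatic cells do not.

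Library totals ran from 8294524 to 14095189 counts, of which 1947 to 5416 fell on the 10 genes. Levels are given as CPM, counts scaled to a common TMM-adjusted library total, in the order of replicates 1, 2 and 3 of a strain. CPM values are not divided by gene length, so they compare strains for 1 gene and not 1 gene with another. The TMM factor was lowest in AF16 replicate 3, at 0.746, and highest in gu167 replicate 3, at 1.202. Cbr-spr-4 itself stood at 207 to 251 CPM in gu163, 144 to 156 CPM in gu167 and 88.0 to 120.0 CPM in AF16, and Cbr-htz-1 at 49.7 to 63.8 CPM in gu163, 57.5 to 62.8 CPM in gu167 and 59.9 to 78.7 CPM in AF16. Neither level checks a label, since the alleles are not described.

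Of the 10 genes, 9 had a higher level in every gu163 library than in every AF16 library, and the same was so for 7 of 10 in gu167. The median log2 fold change over the 10 genes was 1.03 in gu163 against AF16, where that of all genes tested was -0.01. In gu167 against AF16 it was 0.55, beside -0.02 for all genes, and in gu167 against gu163 it was -0.33, beside 0.02. By edgeR's quasi-likelihood test over all genes, 9 of the 10 passed adjusted p under 0.05 as higher in gu163 against AF16, where 6.36% of all genes tested did, and 14.5% of all genes tested had higher libraries without overlap. For gu167 against AF16, 5 of the 10 passed as higher, where 1.97% of all genes did and 11.9% were higher and 7.6% lower without overlap. For gu167 against gu163, 4 passed as lower, where 8.33% of all genes did and 5.13% passed as higher, and 5 were lower without overlap, where 20.2% of all genes were. Because these comparisons informed the choice of genes, nothing is read from the counts. In whole animals, a change in the number of dividing cells and a change in RNA per cell cannot be told apart, in any of the comparisons.

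**Figure D1:**
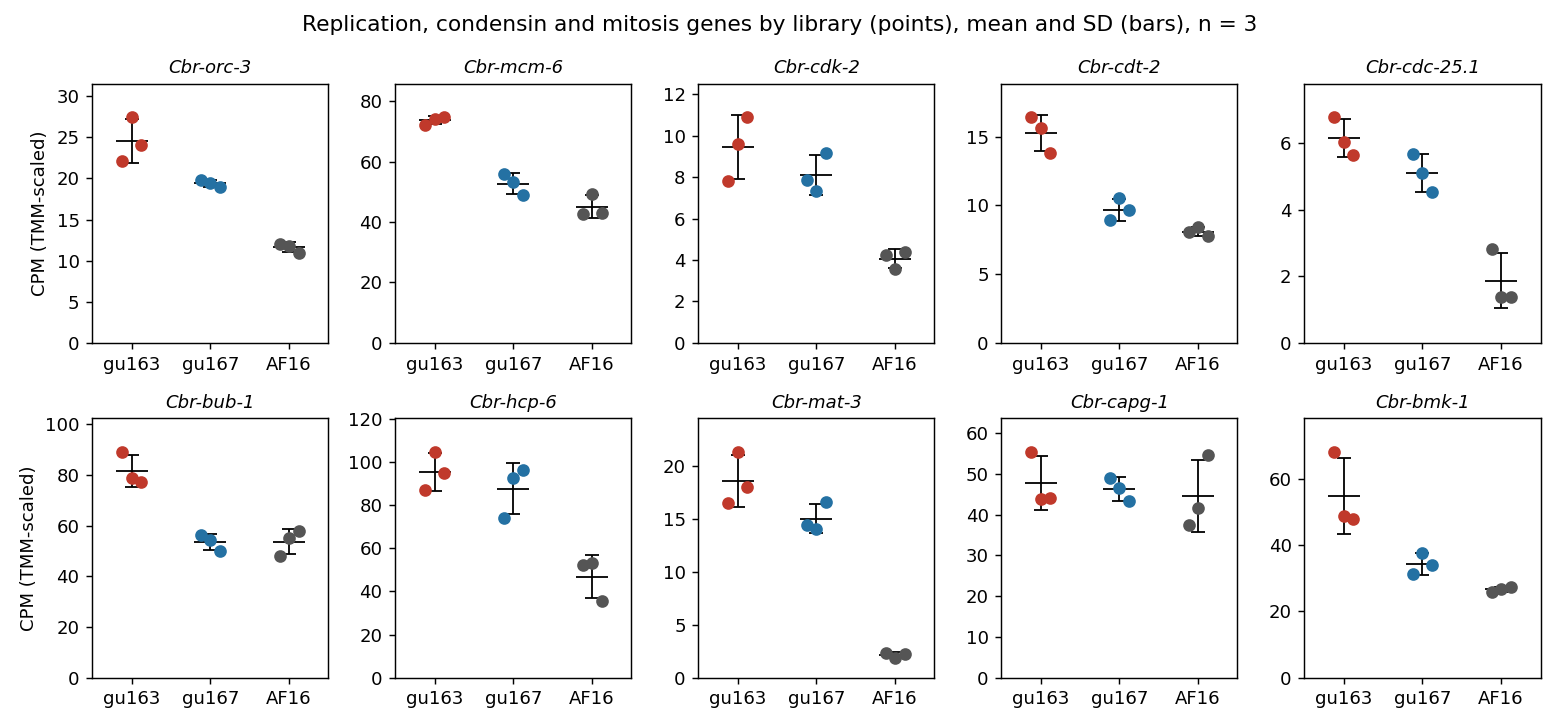
Level of each of the 10 genes in every library, in CPM (y axis, a separate scale for each gene), with gu163, gu167 and AF16 from left to right; points are libraries and bars mark the mean ± SD of 3 libraries. Cbr-mat-3 lies at 16.5 to 21.3 CPM in gu163 and 14.05 to 16.6 CPM in gu167, far above its 1.82 to 2.32 CPM in AF16, while the Cbr-capg-1 libraries of the 3 strains overlap.

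Cbr-orc-3 encodes a subunit of the origin recognition complex, which marks replication origins. It was measured at 22.1, 27.4 and 24.1 CPM in gu163, 19.8, 19.5 and 18.99 CPM in gu167, and 12.1, 11.8 and 10.95 CPM in AF16. The 3 strains did not overlap, with gu163 highest, gu167 between and AF16 lowest. The log2 fold change was 1.08 ± 0.15 (SE) in gu163 against AF16, 0.74 ± 0.15 in gu167 against AF16 and -0.34 ± 0.14 in gu167 against gu163.

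Cbr-mcm-6 encodes a subunit of the replicative MCM helicase. Its levels were 72.1, 74.1 and 74.6 CPM in gu163, 55.8, 53.2 and 48.8 CPM in gu167, and 42.7, 49.4 and 42.9 CPM in AF16. The gu163 libraries stood above all others, while the lowest gu167 library lay below the highest AF16 library. Its log2 fold change was 0.71 ± 0.12 in gu163 against AF16, 0.23 ± 0.12 in gu167 against AF16 and -0.48 ± 0.12 in gu167 against gu163. Cbr-mcm-6 overlaps the chemoreceptor-family gene Cbr-srxa-10 in the reference annotation, to which 2 to 18 counts per library were assigned, against 341 to 926 for Cbr-mcm-6.

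The other subunits of these complexes, which were not among the 10, were tested. Of the 5 other MCM helicase subunits, none passed edgeR's test in either mutant against AF16. Their log2 fold changes ran from 0.10 to 0.36 in gu163 (lowest adjusted p 0.0945) and from -0.07 to 0.07 in gu167 (lowest adjusted p 0.816). In gu163, 1 of the 5 was higher at an unadjusted p under 0.05 and 1 by DESeq2, and in gu167 none was by either. Of 3 other origin recognition subunits, Cbr-orc-5 rose in gu163, with 12.1 ± 1.61 CPM there and 6.97 ± 1.74 CPM in AF16 (SD, n = 3 each; log2 fold change 0.79 ± 0.22, edgeR adjusted p 0.0471). That call was lost in 8 of the 9 fits that left out 1 library, with adjusted p up to 0.141. Difference tests between Cbr-mcm-6 or Cbr-orc-3 and their partners were not made.

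Cbr-cdk-2 encodes a cyclin-dependent kinase that in C. elegans acts with cyclin E at the start of S phase. It stood at 7.81, 9.61 and 10.9 CPM in gu163, 7.85, 7.31 and 9.14 CPM in gu167, and 4.23, 3.56 and 4.41 CPM in AF16. Both mutants lay above AF16 in every library and overlapped each other. On the log2 scale its fold change was 1.22 ± 0.21 in gu163 against AF16, 0.99 ± 0.21 in gu167 against AF16 and -0.23 ± 0.20 in gu167 against gu163.

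Cbr-cdc-25.1 encodes a CDC25-family phosphatase, which removes inhibitory phosphates from cyclin-dependent kinases and in C. elegans is needed for germline proliferation. It was low in all strains, at 6.77, 6.05 and 5.64 CPM in gu163, 5.68, 5.10 and 4.52 CPM in gu167, and 2.82, 1.39 and 1.38 CPM in AF16. The AF16 values rest on 28, 16 and 11 counts. AF16 was lower than either mutant in every library, and the mutants overlapped. The log2 fold change was 1.71 ± 0.30 in gu163 against AF16 and 1.44 ± 0.30 in gu167 against AF16, and without AF16 replicate 1, the highest AF16 library, these were 2.13 and 1.87.

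Cbr-cdt-2 encodes the substrate receptor of the CRL4 ubiquitin ligase, which in C. elegans removes the licensing factor CDT-1 in S phase and so blocks re-replication. Its levels were 16.4, 15.7 and 13.9 CPM in gu163, 8.93, 10.5 and 9.65 CPM in gu167, and 8.06, 8.43 and 7.80 CPM in AF16. The gu163 libraries stood well above the rest, and the gu167 libraries lay just above AF16 without overlap. Its log2 fold change was 0.91 ± 0.17 in gu163 against AF16, 0.26 ± 0.17 in gu167 against AF16 and -0.65 ± 0.16 in gu167 against gu163. None of the 3 other measured genes of this ligase passed edgeR's test in either mutant against AF16, with log2 fold changes of -0.09 to -0.01 in gu163 and -0.16 to 0.20 in gu167, and none did at an unadjusted p under 0.05 or by DESeq2.

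The 10 genes held 2 condensin genes with different values, Cbr-hcp-6, listed under the condensin II complex, and Cbr-capg-1, listed under condensin only. Cbr-hcp-6, a non-SMC subunit that in C. elegans is needed for mitotic chromosome structure, stood at 86.98, 105 and 94.7 CPM in gu163, 74.2, 92.6 and 96.1 CPM in gu167, and 52.1, 53.0 and 35.6 CPM in AF16. Both mutants lay above AF16 and overlapped each other, and AF16 replicate 3 was the lowest library. The log2 fold change of Cbr-hcp-6 was 1.02 ± 0.18 in gu163 against AF16, 0.90 ± 0.18 in gu167 against AF16 and -0.12 ± 0.18 in gu167 against gu163.

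Cbr-capg-1, a condensin subunit of the CAP-G type, was measured at 55.3, 43.9 and 43.98 CPM in gu163, 49.1, 46.7 and 43.3 CPM in gu167, and 37.6, 41.7 and 54.6 CPM in AF16. All 3 strains overlapped, and AF16 replicate 3 was here the highest AF16 library. On the log2 scale its fold change was 0.10 ± 0.17 in gu163 against AF16, 0.06 ± 0.17 in gu167 against AF16 and -0.04 ± 0.17 in gu167 against gu163. Without AF16 replicate 3 and gu167 replicate 3 together, the value for gu167 against AF16 was 0.27, and in each comparison at least 1 alternative turned the sign of the Cbr-capg-1 value. Of the 6 other condensin genes tested, pooled without regard to condensin complex, none passed edgeR's test in either mutant against AF16. Their log2 fold changes ran from -0.23 to 0.58 in gu163 (lowest adjusted p 0.0737) and from -0.26 to 0.64 in gu167 (lowest adjusted p 0.194). At an unadjusted p under 0.05, 2 were higher in gu163 and 1 in gu167, and DESeq2 called 1 in gu163 and 0 in gu167. The value of 0.58 in gu163, with edgeR adjusted p 0.0737, was that of Cbr-capg-2.

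**Figure D2:**
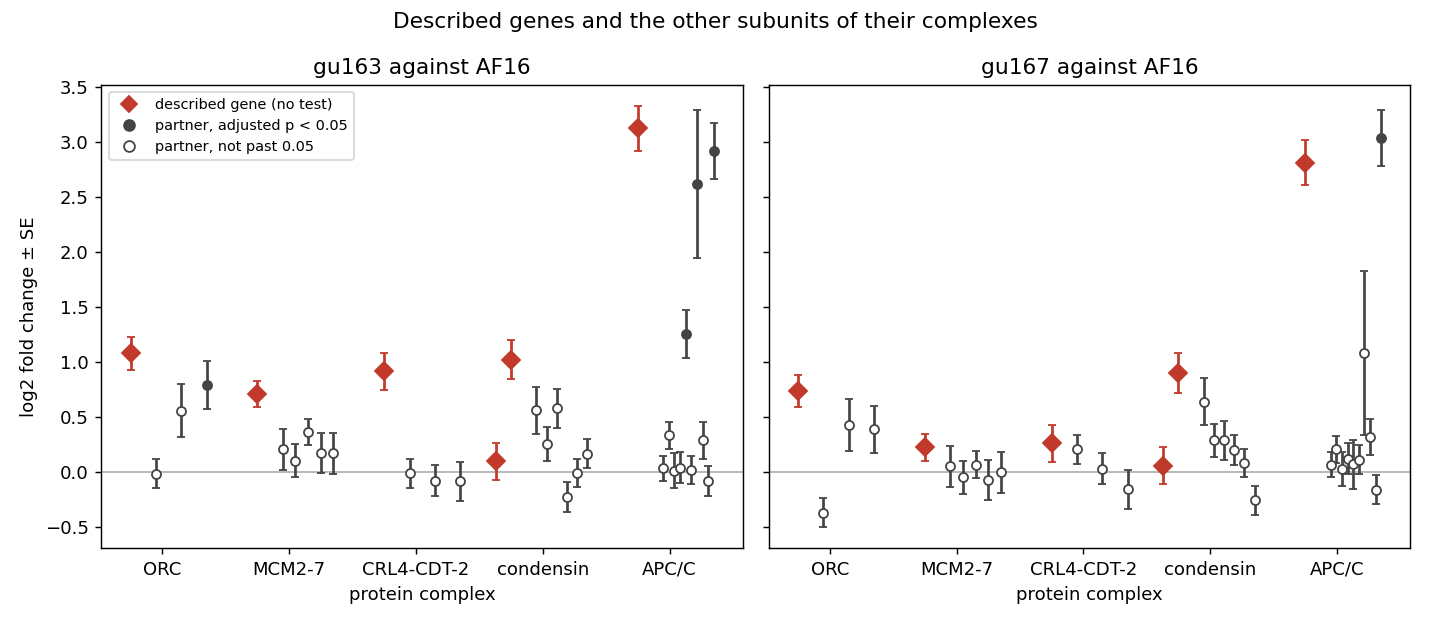
Log2 fold change ± SE against AF16 (y axis), gu163 left and gu167 right, for 6 of the 10 genes (diamonds, no test) and the other tested subunits of their complexes (circles, filled where edgeR adjusted p is under 0.05), by complex (x axis). All condensin genes are drawn as a single group, without regard to condensin complex. Cbr-mcm-6 lies at 0.71 ± 0.12 in gu163 beside partners at 0.10 to 0.36, and Cbr-mat-3 lies at 3.13 ± 0.20 beside 7 partners, not called, at -0.08 to 0.33.

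Cbr-bub-1 encodes a kinetochore kinase that in C. elegans acts in the spindle checkpoint and in chromosome alignment. Its levels were 88.9, 78.7 and 77.0 CPM in gu163, 56.2, 54.5 and 49.8 CPM in gu167, and 48.2, 55.2 and 57.7 CPM in AF16. Only in gu163 did the libraries stand apart, above both other strains, which overlapped. The log2 fold change was 0.60 ± 0.13 in gu163 against AF16, -0.0037 ± 0.13 in gu167 against AF16 and -0.61 ± 0.13 in gu167 against gu163. The value for gu167 against AF16 ran from -0.08 to 0.10 over the alternatives and so had no fixed sign.

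Cbr-bmk-1 encodes a kinesin of the BimC family, motors that crosslink spindle microtubules. It was measured at 68.0, 48.7 and 47.8 CPM in gu163, 31.2, 37.7 and 34.1 CPM in gu167, and 25.8, 26.6 and 27.4 CPM in AF16. The 3 strains did not overlap, and gu163 replicate 1 stood above the other gu163 libraries. Its log2 fold change was 1.04 ± 0.16 in gu163 against AF16, 0.37 ± 0.16 in gu167 against AF16 and -0.67 ± 0.16 in gu167 against gu163.

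Cbr-mat-3 encodes a subunit of the anaphase-promoting complex, the ubiquitin ligase that starts chromosome separation and, in C. elegans, is also needed for the meiotic divisions. It had the largest fold change of the 10 genes. Its levels were 16.5, 21.3 and 17.96 CPM in gu163, 14.4, 14.05 and 16.6 CPM in gu167, and 2.32, 1.82 and 2.27 CPM in AF16, where they rest on 23, 21 and 18 counts. Both mutants lay far above AF16 and overlapped each other. The fold was 8.72 in gu163 (log2 3.13 ± 0.20) and 7.03 in gu167 (log2 2.81 ± 0.20) against AF16, and the log2 fold change was -0.31 ± 0.17 in gu167 against gu163.

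Of the 10 other measured subunits of the anaphase-promoting complex, 3 rose in gu163 against AF16 and 1 in gu167. Cbr-such-1, in C. elegans a counterpart of the APC5 subunit, stood at 7.81, 9.53 and 10.3 CPM in gu163, 9.02, 9.51 and 11.6 CPM in gu167, and 1.31, 1.39 and 0.881 CPM in AF16. It rose in gu163 (log2 fold change 2.92 ± 0.26, edgeR adjusted p 0.000102) and, at 3.03 ± 0.25 with adjusted p 0.000159, in gu167 too. Cbr-emb-1, a small subunit of the complex in C. elegans, rose in gu163 alone of the 2 mutants, with 20.1 CPM there, 8.83 CPM in gu167 and 8.43 CPM in AF16. Its log2 fold change was 1.25 ± 0.22 in gu163 against AF16 (adjusted p 0.0063) and -1.18 ± 0.22 in gu167 against gu163 (adjusted p 0.00865). The remaining riser in gu163 was Cbr-apc-10, named after its value was seen, with only 18, 17 and 12 counts in gu163 and 5, 1 and 1 in AF16 (log2 fold change 2.62 ± 0.67, adjusted p 0.036). It passed the filter on low counts only through gu163, with 3, 12 and 5 counts in gu167, so its call is not independent of the filter. Its call was lost in 6 of 9 fits that left out 1 library (AF16 replicate 2 or 3, any gu163 library or gu167 replicate 3), with adjusted p up to 0.115, and 2 subunits then stayed called. The 7 subunits not called in gu163 had log2 fold changes of -0.08 to 0.33, with a lowest adjusted p of 0.136.

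Across strains 9 of the 10 genes were grouped by how gu167 stood, a grouping made after the values were seen. Cbr-capg-1, at 0.10 in gu163 and 0.06 in gu167 against AF16, was in neither group. Cbr-orc-3, Cbr-cdk-2, Cbr-cdc-25.1, Cbr-hcp-6 and Cbr-mat-3 had log2 fold changes of 0.74 to 2.81 in gu167 against AF16. Cbr-mcm-6, Cbr-cdt-2, Cbr-bub-1 and Cbr-bmk-1 had -0.0037 to 0.37 there, though they were at 0.60 to 1.04 in gu163 against AF16. The border was not sharp, with Cbr-orc-3 at 0.74 ± 0.15 and Cbr-bmk-1 at 0.37 ± 0.16 in gu167 against AF16. Like the second group, Cbr-orc-3 was also lower in gu167 than in gu163 without overlap (-0.34 ± 0.14). The strain means ran in the order gu163, gu167, AF16 from high to low in 9 of the 10, and gu163, AF16, gu167 in Cbr-bub-1. Both mutant comparisons share the AF16 libraries.

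**Figure D3:**
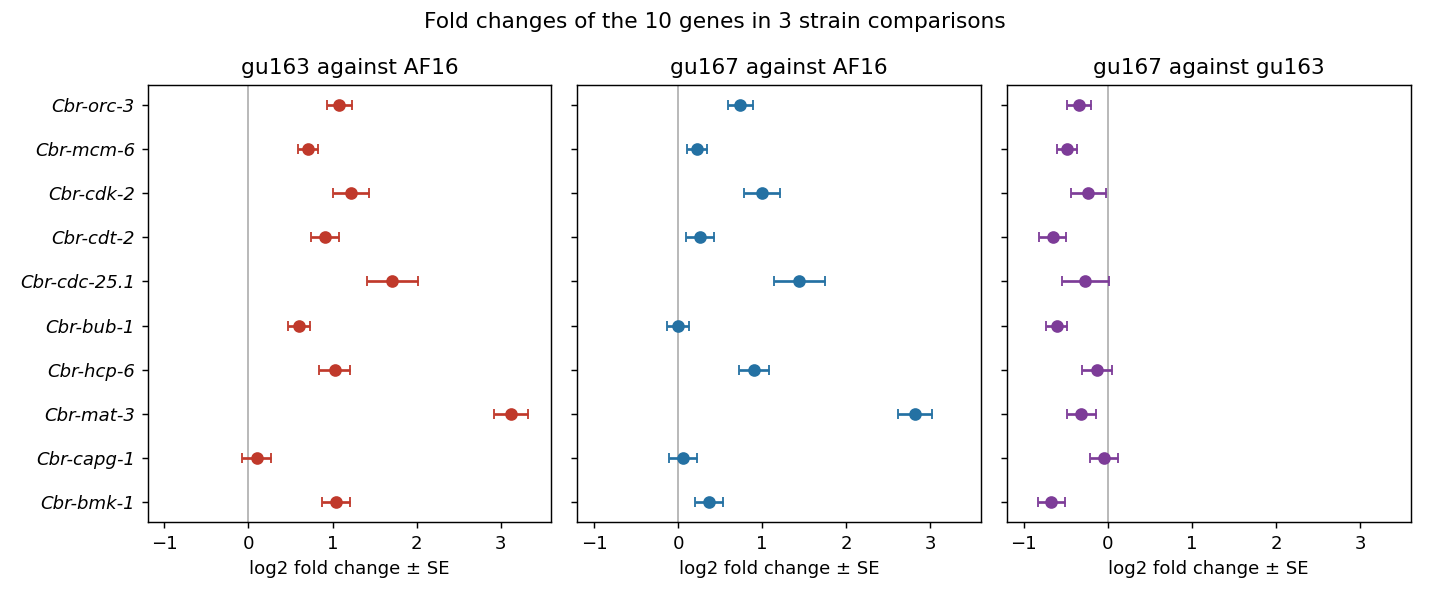
Log2 fold change ± SE (x axis) of the 10 genes in gu163 against AF16, gu167 against AF16 and gu167 against gu163. The gu163 values run from 0.10 for Cbr-capg-1 to 3.13 for Cbr-mat-3, and the gu167 values from -0.0037 for Cbr-bub-1 to 2.81 for Cbr-mat-3.

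Over the 9 libraries, the 45 pairs of the 10 genes had a median Pearson r of 0.75 on log2 CPM. The highest was 0.97, between Cbr-cdk-2 and Cbr-mat-3, and the lowest was -0.09, between Cbr-hcp-6 and Cbr-capg-1. These points share libraries, scaling and strain, so the correlations are a description of 9 libraries only.

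Other replication and mitosis genes were drawn from 10 lists built from C. elegans gene families, with 127 genes tested after the 10 were left out. The lists were made with earlier results of these data known, so their shares are not independent of that knowledge. In gu163 against AF16, 35 of the 127 (27.6%) rose and 0 fell by edgeR, where 6.36% of all genes rose, with a median log2 fold change of 0.34 (all genes -0.01). Cbr-apc-10, which passed the filter on low counts only through gu163, is 1 of the 35. At an unadjusted p under 0.05, 62 were higher and 1 lower, and DESeq2 called 44 higher and 0 lower. In gu167 against AF16, 10 (7.87%) rose and 0 fell, where 1.97% of all genes rose, with a median of 0.20 (all genes -0.02), against 34 higher and 1 lower unadjusted, and 21 higher and 0 lower by DESeq2. All 10 were among the 35, but the 2 comparisons share the AF16 libraries and 1 fit, and no such overlap is given for all genes. In gu167 against gu163, 0 rose and 10 (7.87%) fell, a share no larger than the 8.33% of all genes tested that fell, with a median of -0.13 (all genes 0.02). There were 5 higher and 26 lower unadjusted and 1 higher and 17 lower by DESeq2, and 7 of the 10 were among the 35. Here the gu163 libraries are shared with gu163 against AF16, so nothing is read from that overlap.

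These counts depend on single libraries. The 35 fell to 19 without gu163 replicate 2, 19 without gu163 replicate 3 and 23 without gu167 replicate 2. The 10 higher in gu167 came to 4 without gu167 replicate 2, 4 without gu167 replicate 3, 5 without AF16 replicate 2, 6 without gu163 replicate 3 and 6 without gu167 replicate 1. The 10 lower in gu167 against gu163 came to 3, 5 and 4 without gu163 replicates 1, 2 and 3, to 4, 3 and 4 without gu167 replicates 1, 2 and 3, and to 19 without AF16 replicate 3.

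The genes that rose in gu163 were mostly in the spindle and kinetochore lists. In the spindle, mitotic kinesin and cytokinesis list 13 of 25 rose in gu163 and 3 in gu167 against AF16, and in the kinetochore and checkpoint list 9 of 21 and 2. Cbr-ani-2, an anillin-family gene that in C. elegans shapes the germline syncytium, stood at 13.02, 10.3 and 10.3 CPM in gu163, 8.85, 9.51 and 8.24 CPM in gu167, and 2.92, 2.78 and 3.52 CPM in AF16. It rose in gu163 (log2 fold change 1.86 ± 0.21, edgeR adjusted p 0.000484) and, at 1.53 ± 0.21 with adjusted p 0.00271, in gu167 too. Cbr-rod-1, whose C. elegans counterpart recruits dynein to kinetochores, rose in gu163 (245 CPM, against 92.7 CPM in AF16; log2 fold change 1.40 ± 0.15, adjusted p 0.000445) and in gu167 (174 CPM; 0.91 ± 0.15, adjusted p 0.0101). Its gu167 call was lost without gu167 replicate 2 or replicate 3. Cbr-cyk-1, a formin of the contractile ring, rose in gu163 (70.6 CPM, against 28.3 CPM in AF16; 1.32 ± 0.15, adjusted p 0.00061) and fell in gu167 against gu163 (39.7 CPM in gu167; -0.83 ± 0.15, adjusted p 0.0084). Cbr-lin-5, which orients spindles in C. elegans, rose in gu163 (71.4 CPM, against 33.5 CPM in AF16; 1.09 ± 0.14, adjusted p 0.00124).

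With 1 library left out, the gu163 count of 9 in the kinetochore list came to 5, 4 and 3 (without gu163 replicates 1, 2 and 3) and to 6 (without gu167 replicate 2 or 3). Its gu167 count of 2 came to 0 without gu167 replicate 2 or 3 and to 1 without AF16 replicate 2 or 3, gu163 replicate 3 or gu167 replicate 1. The spindle count of 13 came to 8 when AF16 replicate 2 or gu163 replicate 2 was left out. Its gu167 count of 3 came to 1 without AF16 replicate 2, gu163 replicate 2 or 3, or any gu167 library, and to 2 without AF16 replicate 1.

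Among replication and S-phase genes outside the 10, calls were fewer. Of 16 replication fork genes 4 rose in gu163 and 0 in gu167 against AF16 (unadjusted 4 in gu167, DESeq2 2), but only 1 rose without gu163 replicate 2, gu163 replicate 3 or gu167 replicate 2, and 2 without AF16 replicate 3. Cbr-tim-1, the counterpart of the fork-stabilizing protein Timeless, stood at 48.7, 51.6 and 45.3 CPM in gu163, 38.6, 38.6 and 34.9 CPM in gu167, and 28.004, 26.7 and 20.3 CPM in AF16. It rose in gu163 (log2 fold change 0.96 ± 0.15, edgeR adjusted p 0.00368). Of 7 genes in the list of the MCM helicase and its activators, Cbr-mus-101, a TopBP1-family gene, alone rose, in gu163 (39.3 CPM, against 15.9 CPM in AF16; 1.31 ± 0.23, adjusted p 0.00591) and in gu167 (34.9 CPM; 1.13 ± 0.22, adjusted p 0.0292). The gu167 call was lost in 5 of 9 fits that left out 1 library. Of 19 cyclin, CDK and regulator genes, Cbr-chk-1, a checkpoint kinase, alone rose in gu163 (21.2 CPM, against 10.8 CPM in AF16; 0.96 ± 0.15, adjusted p 0.00382), and 0 rose in gu167 (unadjusted 2, DESeq2 2).

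Separase and 2 cohesin genes rose in both mutants. Cbr-sep-1, the separase that cuts cohesin at anaphase, stood at 31.9 CPM in gu163, 25.22 CPM in gu167 and 11.97 CPM in AF16 (log2 fold change 1.41 ± 0.16, edgeR adjusted p 0.000523 in gu163; 1.07 ± 0.16, adjusted p 0.00466 in gu167). Of 10 cohesin genes 2 rose in each mutant. Cbr-coh-4, whose C. elegans counterpart is a kleisin of meiotic cohesin, stood at 6.90, 4.47 and 5.07 CPM in gu163, 3.92, 4.03 and 4.52 CPM in gu167, and 0.907, 1.303 and 1.13 CPM in AF16. It rose in gu163 (2.27 ± 0.28, adjusted p 0.00102) and in gu167 (1.88 ± 0.29, adjusted p 0.00549). Cbr-rec-8, another meiotic kleisin, also rose in gu163 (4.17 CPM, against 0.803 CPM in AF16; 2.30 ± 0.60, adjusted p 0.0381) and in gu167 (7.94 CPM; 3.23 ± 0.59, adjusted p 0.0178). These calls were lost in 7 and 3 of 9 fits that left out 1 library, and the AF16 level rests on 17, 8 and 0 counts.

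**Figure D4:**
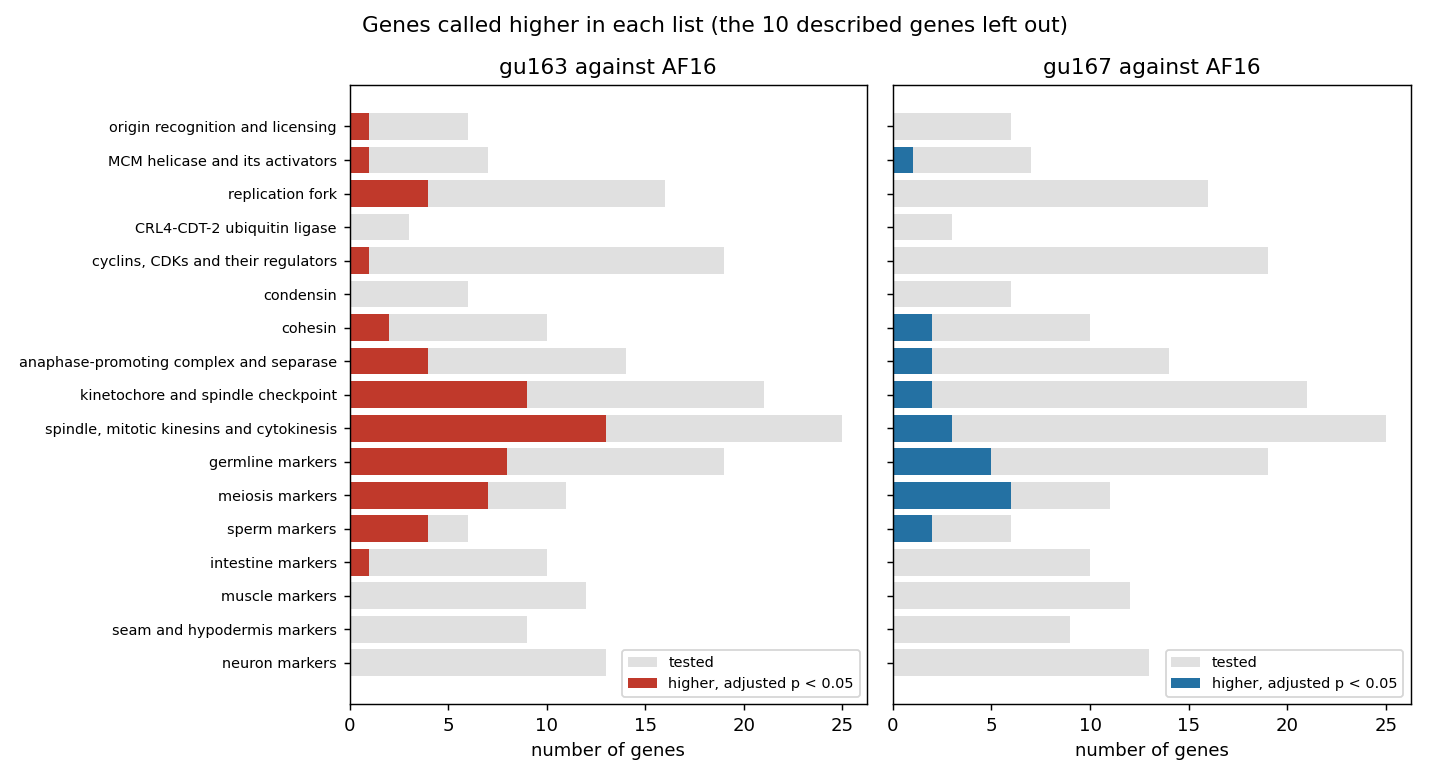
Number of genes (x axis) tested in each pathway and marker list, in grey with the 10 genes left out, and number called higher by edgeR at adjusted p under 0.05, in colour, for gu163 against AF16 (left) and gu167 against AF16 (right). In gu163 against AF16 the spindle list holds 13 higher of 25 and the kinetochore list 9 of 21, while the condensin list holds 0 of 6.

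Some markers of germ cells also rose in both mutants against AF16, and their part in the result was not tested. In gu163 against AF16, 8 of 19 germline, 7 of 11 meiosis and 4 of 6 sperm markers rose, where 6.36% of all genes tested did. In gu167 against AF16, 5, 6 and 2 rose, where 1.97% of all genes did. Only 6 of the 9 matched sperm markers passed the filter on low counts. Cbr-spe-41 passed it only through gu163 (38, 93 and 72 counts, against 2, 1 and 0 in AF16 and 5, 9 and 4 in gu167). Its rise is therefore not independent of the filter. In gu167 against gu163, the germline, meiosis and sperm lists had medians of -0.01, 0.17 and -0.03, beside -0.33 for the 10 genes. There 0 germline markers were called, 1 meiosis marker rose and 0 fell, and 1 sperm marker rose and 2 fell. The germline count in gu163 was 4 when AF16 replicate 2 was left out and 5 when gu163 replicate 1 was. The count of 5 in gu167 was 3 without AF16 replicate 1 or 2, gu163 replicate 3 or any gu167 library. The summed level of the 11 meiosis markers was 100.6 to 117 CPM in gu163, 115 to 134 CPM in gu167 and 67.5 to 73.9 CPM in AF16. That of the 9 matched sperm markers was 60.7 to 124 CPM in gu163, 45.2 to 53.9 CPM in gu167 and 34.5 to 42.4 CPM in AF16. The summed germline markers overlapped, at 478 to 526 CPM in gu163, 462 to 532 CPM in gu167 and 381 to 639 CPM in AF16.

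Cbr-gld-3, a germline RNA regulator in C. elegans, stood at 8.91 CPM in gu163, 9.81 CPM in gu167 and 1.64 CPM in AF16 (log2 fold change 2.47 ± 0.27, edgeR adjusted p 0.000484 in gu163; 2.60 ± 0.27, adjusted p 0.000535 in gu167). Cbr-him-3, a meiotic chromosome axis gene, rose in gu163 (2.43 ± 0.24, adjusted p 0.000207) and in gu167 (2.05 ± 0.24, adjusted p 0.00109). Of the somatic lists, 1 of 10 intestine markers, Cbr-cpr-1, rose in gu163, a call lost in 6 of 9 fits that left out 1 library, with adjusted p up to 0.107. In gu167 against AF16, 0 intestine markers were called, at an unadjusted p or by DESeq2 either, and 0 of 12 muscle, 0 of 9 seam and hypodermis and 0 of 13 neuron markers were called in gu163 or in gu167 against AF16. At an unadjusted p under 0.05 the muscle list held 1 higher in gu163, the seam list 2 lower in gu167, and the neuron list 1 lower in gu163 and 2 in gu167. DESeq2 called 1 muscle marker higher in gu163, and in gu167 2 seam and 1 neuron markers lower. No matched marker was at 0 in all libraries.

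Some somatic markers were lower in gu167 against gu163, where 8.33% of all genes tested were, and their part in the result was not tested. There 2 of 10 intestine and 2 of 9 seam and hypodermis markers fell, and 0 of 12 muscle and 0 of 13 neuron markers were called (unadjusted 1 lower in each, DESeq2 0). Cbr-cpr-1, a cysteine protease gene of the C. elegans intestine, stood at 236, 140.5 and 72.8 CPM in gu167, against 1240.2, 617 and 735 CPM in gu163 (log2 fold change -2.53 ± 0.46, edgeR adjusted p 0.00876). Cbr-rol-6, a cuticle collagen gene, stood at 238, 285 and 105 CPM in gu167, against 2159, 739 and 1061 CPM in gu163 (-2.65 ± 0.48, adjusted p 0.0084). The intestine count of 2 was 1 without any 1 of the gu163 or gu167 libraries, and the seam count was 1 without gu163 replicate 1. The 8 intestine markers not called had log2 fold changes of -0.14 to 0.55, and the 7 seam and hypodermis markers not called -1.17 to 0.58. The summed seam and hypodermis markers stood at 489 to 747 CPM in gu167, against 1288.5 to 3050.4 CPM in gu163. The summed intestine markers overlapped, at 5999 to 9715 CPM in gu167 and 7095 to 9076 CPM in gu163.

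Among all genes tested, those closest to the mean standardized profile of the 10 over the 9 libraries were looked up by Pearson r. The 5 nearest with a symbol were Cbr-hpo-32 (r 0.986), Cbr-nmy-2 (0.983), Cbr-clec-147 (0.983), Cbr-icp-1 (0.982) and Cbr-glp-1 (0.980), and the 2 nearest without one were CBG01055 (0.982) and CBG13624 (0.975). In C. elegans, NMY-2 is the non-muscle myosin of the cytokinetic ring, ICP-1 is the INCENP subunit of the Aurora B complex and GLP-1 is the Notch receptor of germline stem cells. No role is given here for Cbr-hpo-32 or Cbr-clec-147, so the nearest genes are not read as a cell division group. Their log2 fold changes in gu163 against AF16 were 2.91 ± 0.20 for Cbr-hpo-32 and 6.89 ± 0.44 for Cbr-clec-147. The latter had only 4, 6 and 1 counts in AF16. Cbr-icp-1 stood at 45.6, 37.9 and 34.4 CPM in gu163, 29.5, 29.7 and 26.8 CPM in gu167, and 20.5, 19.7 and 19.5 CPM in AF16. Cbr-glp-1 stood at 25.26, 17.9 and 20.7 CPM in gu163, 13.4, 15.7 and 14.5 CPM in gu167, and 7.15, 8.08 and 7.43 CPM in AF16. The 3 strains did not overlap in either gene, with gu163 highest and AF16 lowest, as the measure of likeness selects.

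Cbr-bmk-1 and Cbr-capg-1 lie on the chromosome of Cbr-spr-4, with 7 and 9 genes between, and Cbr-coh-4 sits between them. Of 8 other genes in this stretch 5 were tested. Cbr-coh-4 alone rose in gu163 against AF16, where 6.36% of all genes did, and Cbr-coh-4 and CBG11854 rose in gu167, where 1.97% did. CBG11854 stood at 1.42, 1.45 and 1.91 CPM in gu167 and 0.403, 0.434 and 0.504 CPM in AF16 (log2 fold change 1.81 ± 0.39, edgeR adjusted p 0.0449), and that call was lost in 9 of 9 fits that left out 1 library. CBG11851 went the other way in gu163 against AF16, though not called (log2 fold change -0.46 ± 0.17, edgeR adjusted p 0.121). It was higher in gu167 against gu163 (0.79 ± 0.16, adjusted p 0.0134), a call lost in 2 of 9 fits that left out 1 library. The 3 consecutive genes had log2 fold changes of 1.04 ± 0.16, 2.27 ± 0.28 and 0.10 ± 0.17 in gu163 against AF16, for Cbr-bmk-1, Cbr-coh-4 and Cbr-capg-1.

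The neighbours of the 10 genes were looked at in the same way. Of 13 tested, 4 rose and 1 fell in gu163 against AF16, where 6.36% and 2.94% of all genes did. Next to Cbr-mat-3, Cbr-mut-2, a small RNA pathway gene in C. elegans, stood at 5.86, 8.20 and 8.86 CPM in gu163, 5.18, 9.01 and 7.84 CPM in gu167, and 0.403, 1.303 and 0.629 CPM in AF16. It rose in gu163 (log2 fold change 3.24 ± 0.41, edgeR adjusted p 0.00102) and, at 3.18 ± 0.40 with adjusted p 0.00193, in gu167 too. On one side of Cbr-hcp-6, Cbr-spd-5, a centrosome gene, rose in gu163 (109 CPM, against 62.7 CPM in AF16; 0.80 ± 0.12, adjusted p 0.00282). On the other, CBG23745 fell in gu163 (log2 fold change -0.64 ± 0.16, adjusted p 0.0375), a call lost in 7 of 9 fits that left out 1 library.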

How the data were processed

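The authors deposited raw, not normalized, read counts for each gene; the table of the whole series and the per-library files held identical counts in 9 of 9 libraries. Per the submitters' processing notes, the tools were DESeq, FastQC, STAR and Trim Galore, with no versions. The sources used here do not give the build, the counter or the strandedness. Reads shared with an overlapping or antisense gene cannot be separated. Symbols came from a RefSeq gene table of assembly CB4 by locus tag (22727 identifiers matched, 195 not), used only for names and gene order; roles are those of C. elegans counterparts.

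Counts were fitted in edgeR 4.0.16 (R 4.3.3) with TMM scaling, a minimum count of 10 in its filter and robust quasi-likelihood F tests. A single fit held the 9 libraries as 3 groups, and Benjamini-Hochberg adjustment ran over 12507 genes, with adjusted p under 0.05 called. The SE of a log2 fold change came from the F statistic. The steps were tested on simulated counts with 200 changed genes in each comparison. For gu163 against AF16, gu167 against AF16 and gu167 against gu163, 26%, 34% and 37% of 2-fold changes were recovered. Of 4-fold changes 76%, 86% and 86% were, with 9, 10 and 8 false calls. A gene that was not called may therefore still have changed by about 2-fold. Alternatives were DESeq2 1.42.0, limma-voom (limma 3.58.1), RLE and upper-quartile scaling, other filters, a threshold of 0.0005, fits of only the 2 strains compared, a replicate block, and each library left out.

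The members and the gene lists were chosen with earlier results of these data known. Named genes were the 10; from each pathway list, the 3 others with the smallest unadjusted p in gu163 against AF16 and the 2 in gu167 against AF16; the 5 genes with a symbol and 2 without nearest in profile; from each marker list, 2 by the same p; the strains' own genes; and tested neighbours. The text prints a subset of these. Promoter and protein features were not computed.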

Additional observations from a re-analysis of the deposited data

How the results depend on the processing

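Of the 540 values of the 10 genes under the alternatives, over 30 gene and strain comparisons, 4 moved by more than the replicate spread. The sign changed in 13 values of 4 comparisons, all near 0: Cbr-bub-1 in gu167 against AF16 (-0.08 to 0.10) and Cbr-capg-1 in gu163 (-0.02 to 0.27) and gu167 (-0.06 to 0.27) against AF16 and in gu167 against gu163 (-0.10 to 0.06). Cbr-cdc-25.1 moved in both mutants without AF16 replicate 1 (2.13 in gu163 and 1.87 in gu167), Cbr-orc-3 in gu167 with upper-quartile scaling (0.81) and Cbr-capg-1 in gu167 without AF16 replicate 3 and gu167 replicate 3 together (0.27). Their median in gu163 against AF16 was 0.97 without those 2 libraries and 0.97 to 1.07 with 1 library left out. In gu167 against AF16 it was 0.62 with upper-quartile scaling and 0.51 to 0.57 with 1 library left out, and in gu167 against gu163 -0.42 to -0.27.

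Counts of other pathway genes and of all genes moved more, and the cause was not tested. Pathway genes higher in gu163 against AF16 numbered 21 with only the 2 strains compared, 3 at a threshold of 0.0005 and 19 to 33 with 1 library left out. Those higher in gu167 against AF16 numbered 21 by DESeq2, 5 with only the 2 strains compared, 6 without AF16 replicate 3 and gu167 replicate 3 together, 1 at 0.0005 and 4 to 11 with 1 library left out. In gu167 against gu163, lower genes numbered 5 with upper-quartile scaling, 5 with no filter, 17 by DESeq2, 0 at 0.0005 and 3 to 19 with 1 library left out; higher genes numbered 1 with upper-quartile scaling, 1 by DESeq2, 2 with only the 2 strains compared and 0 to 2 with 1 library left out. Lower pathway genes in gu163 or gu167 against AF16 numbered 0 to 0 with 1 library left out.

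Over all genes, gu163 against AF16 had 1163 calls, 759 with only the 2 strains compared, 85 at 0.0005 and 654 to 1108 with 1 library left out. In gu167 against AF16 there were 262 calls, 636 by DESeq2, 169 with only the 2 strains compared, 42 at 0.0005 and 152 to 367 with 1 library left out. In gu167 against gu163 there were 1683 calls, 25 at 0.0005 and 710 to 2488 with 1 library left out. Of 74 calls on named genes outside the 10, 51 held under every alternative run at the 0.05 threshold and 23 were lost under at least 1.

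Deviations of same-numbered libraries correlated at -0.29 to 0.25. A library correlated best with its own number in 1 of 6 cases for gu163 against AF16, 0 of 6 for gu167 against AF16 and 4 of 6 for gu167 against gu163, where r was 0.23, -0.08 and 0.25 for numbers 1, 2 and 3. No comparison had r over 0.1 for every number, so the numbers were not taken as pairs. With a replicate block the pathway genes higher in gu163 numbered 23 and in gu167 5 against AF16, those lower in gu167 against gu163 numbered 3, and all genes called in gu167 against AF16 numbered 173. The block kept the medians of the 10 genes at 1.03, 0.55 and -0.32. Of the 10 genes, Cbr-cdc-25.1, with few counts in AF16, had the largest SE.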
